A study of Saccharomyces cerevisiae with 3 samples.

Results

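The DNA replication machinery of budding yeast was followed here through the genes of its origin-binding complex, helicase, polymerases, sliding clamp and lagging-strand enzymes, in a pooled variomics library put under drug selection. The set was given as 52 gene names, matched to the array annotation by symbol or synonym. 3 names are synonyms (CDC54, CDC46 and CDC47 for MCM4, MCM5 and MCM7), which leaves 49 genes with 130 named probes, of 5325 genes and 18794 named probes in all. In a variomics library each strain carries sequence variants of 1 gene, and short DNA tags mark the strain, so a tag counts all variants of its gene together. Per the labels, genomic DNA of the essential-gene pool was hybridised on 1 two-colour array for each of cycloheximide, rapamycin and tunicamycin, with drug-selected DNA in Cy5 and untreated DNA of the same pool in Cy3. All cells had been sporulated and grown in selective medium. Amounts in the descriptions are 30 ng (cycloheximide), 20 ng (rapamycin) and 3 "vg" (tunicamycin), and the word "single" stands with rapamycin where the other samples carry "pool". The sources used here do not explain these words. Cycloheximide blocks translation elongation, rapamycin inhibits TOR kinase through Fpr1, and tunicamycin inhibits Alg7, which starts N-linked glycan synthesis.

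DNA replication starts at origins bound by the origin recognition complex (ORC), which with Cdc6 and Cdt1 (encoded by TAH11) loads the ring-shaped MCM helicase in G1. The kinase Cdc7 with Dbf4, and cyclin-dependent kinase acting through Sld2, Sld3 and Dpb11, then turn the loaded ring into the active helicase of Cdc45, MCM and GINS. Polymerase alpha-primase lays down primers, polymerase epsilon copies the leading strand and polymerase delta the lagging strand, held by the PCNA clamp that the RFC clamp loader places on DNA. Nearly all of these proteins are needed for life. By textbook knowledge 5 of the 49 genes are not essential, namely CTF4, DPB3, DPB4, POL32 and RAD27, and the other 44 are.

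A value here is the log2 ratio of drug-selected over untreated DNA minus the median of its array, and the measured probes of a gene were averaged into its gene value. Which channel is on top is not written in the files. The labelled dyes make Cy5 over Cy3 likely, and of 4 known drug targets 2 were enriched under their drug, TOR2 at 10.40 under rapamycin and ALG7 at 7.19 under tunicamycin (n = 2 each). TOR1 had -0.11 (n = 12) under rapamycin. Presence of a TOR1 strain in the essential-gene pool is not known here, so nothing about its response is read from this value. RPL28, the ribosomal protein gene in which cycloheximide resistance arises, had 2.76 ± 2.33 (n = 2) under cycloheximide and was not called. No target was thus called on the cycloheximide array. With the ratio turned round, every gene given below as depleted would be enriched. Each array has a spread unit, its scaled median absolute deviation of gene values, of 0.92 for cycloheximide, 1.06 for rapamycin and 0.91 for tunicamycin. A gene was called depleted or enriched when its value was 3 units or more from 0, with 2 or more probes measured and each of them 2 units or more to the same side. Gene values therefore had to reach -2.77, -3.17 and -2.74 under cycloheximide, rapamycin and tunicamycin to be called depleted. With 1 array per drug there is no replicate, so no test was made, and every SD given is over the n probes that measured a gene on that array.

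About as many replication genes were called depleted as not, and none was enriched. Among those measured by 2 or more probes, cycloheximide left 25 of 43 (58.1%) depleted, rapamycin 11 of 25 (44%) and tunicamycin 19 of 41 (46.3%). Over all genes of the array the depleted share was 15.2%, 6.45% and 13.6% on these arrays, and the enriched share 0.0485%, 0.0747% and 0.12%. The medians of the replication genes were -3.25 (49 genes), -4.46 (45 genes) and -3.47 (49 genes), and over all genes -0.04, -0.21 and -0.09. Under cycloheximide the count was 15 of 43 at thresholds of 4 and 3 units, where 341 of 4121 genes of the array (8.27%) were depleted. On the same array the count was 0 of 31 without spots whose ratio is one of whole numbers up to 10, where 6 of 1442 genes were called. The count under rapamycin was 24 of 45 when 1 measured probe sufficed, where 11.7% of all genes were depleted and 0.176% enriched.

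All called genes were among the 44 essential ones, with 25 of 39, 11 of 21 and 19 of 37 depleted under cycloheximide, rapamycin and tunicamycin. Among the 5 non-essential genes 0 of 4 with at least 2 measured probes were depleted on each array. The DNA was labelled as that of an essential-gene pool, so strains of these 5 genes need not have been present, and nothing about their response is read from the absence of calls. The same holds for the other non-essential lists below. Of all genes with 12 probes on the array, to which 3 of the 5 belong, 0.256%, 0.384% and 0.128% were depleted. POL32 (YJR043C), DPB3 (YBR278W) and RAD27 (YKL113C), each with 12 probes on the array, stayed close to the array median. RAD27, the flap endonuclease of Okazaki fragment processing, had -0.33 ± 1.11 (n = 10) under cycloheximide, -0.06 ± 0.75 (n = 8) under rapamycin and 0.24 ± 1.19 (n = 9) under tunicamycin. POL32, a small subunit of polymerase delta, had 0.08 ± 1.09 (n = 10) under cycloheximide and -0.05 ± 1.26 (n = 10) under rapamycin. Under tunicamycin it had 0.56, with probes between -2.13 and 2.87 (n = 9). DPB3, a small subunit of polymerase epsilon, had 0.45 ± 1.01, -0.13 ± 1.21 and 0.39 ± 1.07, with n = 12 on each.

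The other non-essential genes have fewer probes. DPB4, the partner of DPB3, had 1 measured probe on each array, at -1.26 under cycloheximide, 1.91 under rapamycin and 0.51 under tunicamycin. CTF4 (YPR135W), the scaffold that links helicase and polymerase alpha, had the highest value of the replication genes with at least 2 probes on 2 of the arrays. Its cycloheximide value was 2.32 ± 1.41 and its rapamycin value 1.78 ± 0.40 (n = 2 each), short of the threshold on both, and at -0.94 ± 0.26 (n = 2) under tunicamycin. Under cycloheximide and rapamycin both of its spots held exactly the ratio of 2 whole numbers no larger than 10, once taken out of log2. Of the measured spots of the 5 non-essential genes 64 of 101 (63.4%) had this form. Over all genes the share was 66.7% under cycloheximide, 40.7% under rapamycin and 63.1% under tunicamycin. Channel signals were not analysed here, so the brightness of these spots is not known.

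**Figure D1:**
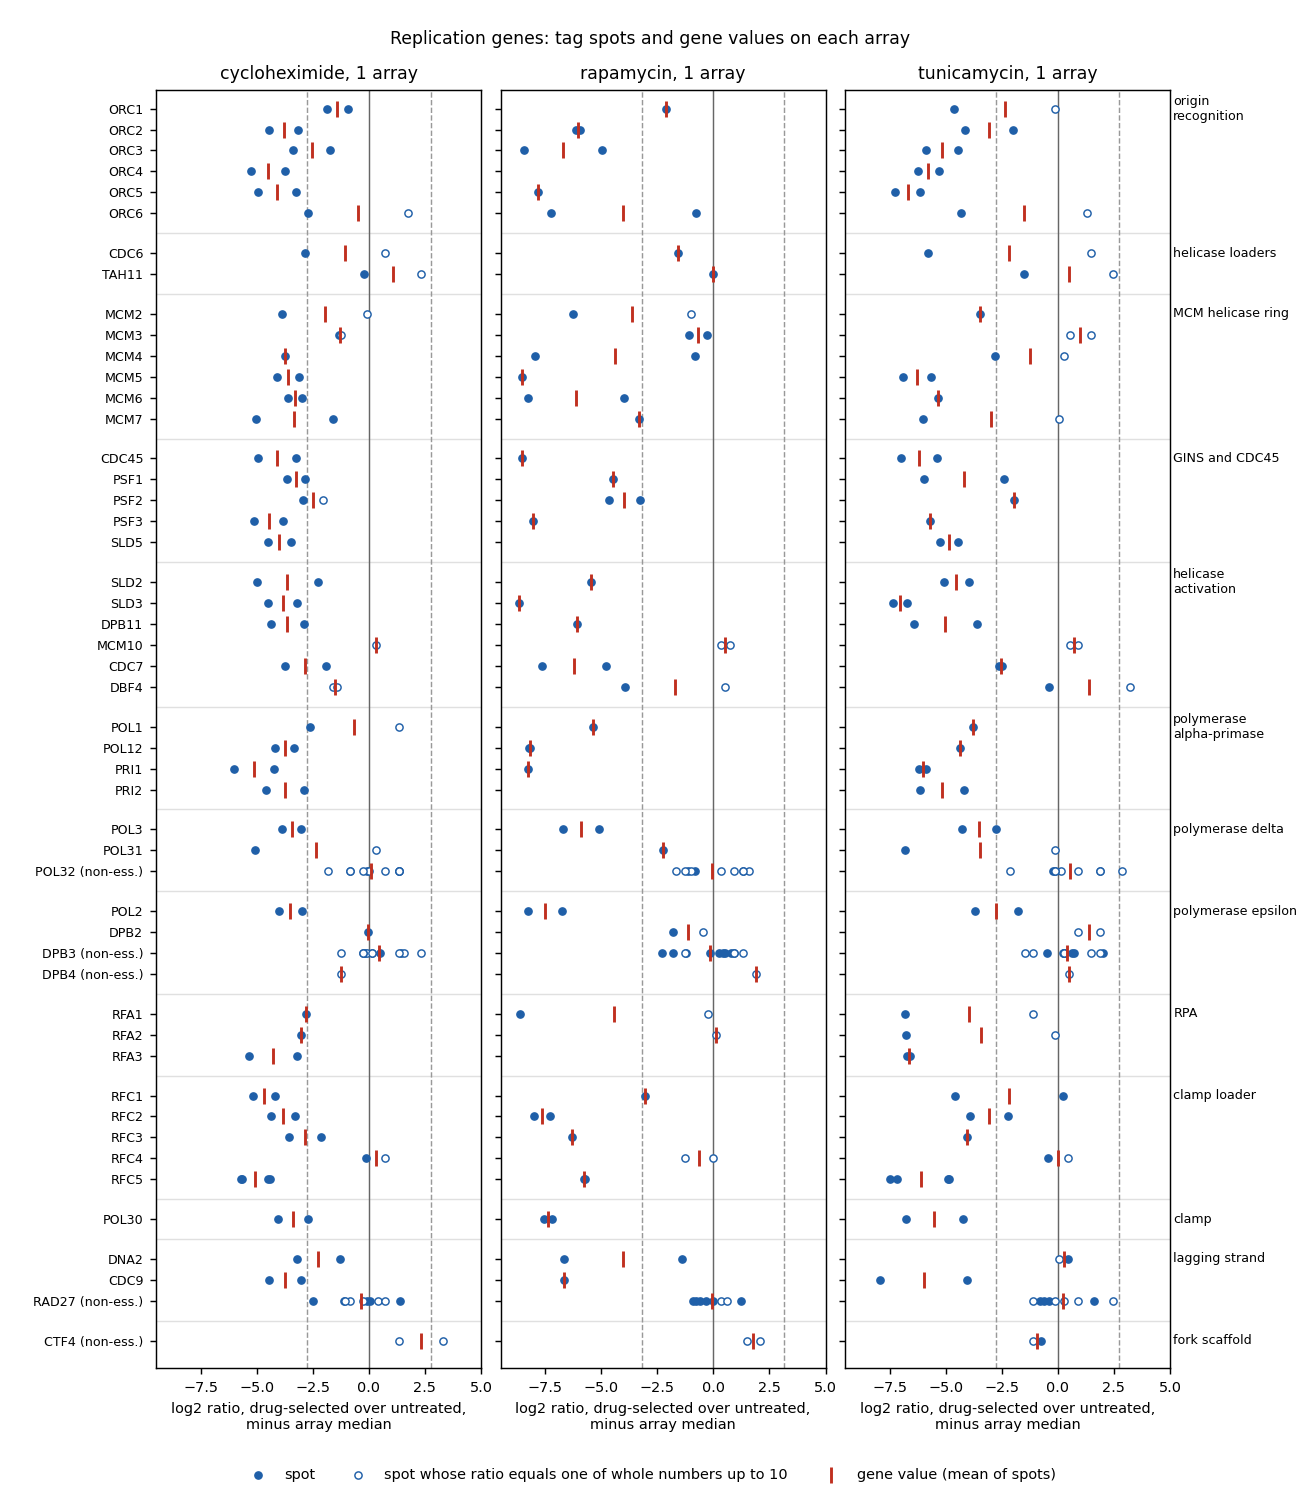
Each row is a replication gene, grouped by complex, and each panel an array. The horizontal axis is the log2 ratio of drug-selected over untreated DNA minus the array median. Points are single spots, open where the ratio equals one of whole numbers up to 10, red bars are gene values, and dashed lines are the thresholds of 3 spread units. Rows marked non-ess. are the 5 non-essential genes, whose gene values stay between the thresholds, while 25, 11 and 19 other genes were called depleted.

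ORC, the complex of 6 subunits that marks origins, had 3 of 6 genes depleted with cycloheximide, 2 of 3 with rapamycin, and 4 of 6 with tunicamycin. Its medians were -3.18, -6.03 and -4.12. ORC2 (YBR060C) was depleted on all 3 arrays, at -3.80 ± 0.92 under cycloheximide, -6.03 ± 0.13 under rapamycin and -3.07 ± 1.51 under tunicamycin (n = 2 each). ORC3 (YLL004W) had -2.56 ± 1.16, which was not called, under cycloheximide, and was depleted at -6.71 ± 2.46 under rapamycin and -5.18 ± 1.03 under tunicamycin. ORC4 and ORC5, both members of the ATPase core, were the lowest of the complex under cycloheximide and tunicamycin. ORC4 (YPR162C) had -4.50 ± 1.08 under cycloheximide and -5.79 ± 0.67 under tunicamycin, and both of its spots were empty under rapamycin. ORC5 (YNL261W) had -4.09 ± 1.22 and -6.71 ± 0.79 on those arrays, and its only measured probe under rapamycin stood at -7.84. ORC1, the large ATPase subunit, was not called on any array, with -1.41 ± 0.66 under cycloheximide, -2.12 (n = 1) under rapamycin and -2.37 ± 3.18 under tunicamycin. ORC6, the subunit that contacts Cdt1, was not called either, because its probes disagreed, at -2.72 and 1.74 under cycloheximide, -7.26 and -0.79 under rapamycin, and -4.33 and 1.29 under tunicamycin.

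The helicase loaders had 0 calls, and 0 of them had 2 measured probes under rapamycin. CDC6 had 1 low probe and 1 near or above the array median, at -2.85 and 0.74 under cycloheximide and at -5.82 and 1.46 under tunicamycin. Under rapamycin its lower-numbered probe, the low one, was empty, and the other stood at -1.57. TAH11 had -0.20 and 2.32 under cycloheximide, -0.04 (n = 1) under rapamycin, and -1.495 and 2.46 under tunicamycin. None of its measured spots was 2 units below 0.

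The MCM ring, a hexamer of related ATPases in which each subunit is essential, gave unlike values between subunits. Of its genes 2 of 5 were depleted with cycloheximide, 1 of 4 with rapamycin, and 1 of 4 with tunicamycin, and its medians were -3.32, -4.01 and -3.22. MCM5 (YLR274W) had -3.62 ± 0.68 under cycloheximide and -6.30 ± 0.90 under tunicamycin, both depleted (n = 2 each), and -8.54 (n = 1) under rapamycin. MCM6 (YGL201C) was depleted at -3.30 ± 0.43 under cycloheximide and -6.13 ± 3.01 under rapamycin (n = 2 each), and had -5.37 (n = 1) under tunicamycin. No other MCM gene was called. MCM2, MCM4 and MCM7 each had 1 low probe and 1 higher probe on the arrays that measured both. In MCM2 the probes stood at -0.07 and -3.89 under cycloheximide and at -1 and -6.28 under rapamycin, and the only measured one was at -3.47 under tunicamycin. In MCM4 they stood at -0.81 and -7.96 under rapamycin and at 0.29 and -2.79 under tunicamycin, with -3.74 in the only measured one under cycloheximide. MCM7 had -1.62 and -5.05 under cycloheximide, 0.07 and -6.03 under tunicamycin, and -3.31 (n = 1) under rapamycin. That rapamycin value came from the probe that was the higher one on the other arrays, so this probe was low there too. MCM3 (YEL032W) was low on no array, with -1.29 ± 0.04, -0.71 ± 0.56 and 1.01 ± 0.64 (n = 2 each) under cycloheximide, rapamycin and tunicamycin.

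GINS and CDC45, which complete the active helicase, were low in every measured spot. All 10 spots under cycloheximide, all 5 measured ones under rapamycin and all 8 under tunicamycin lay more than 2 units below 0. Called depleted were 4 of 5 genes, 1 of 1 and 3 of 3, and the medians were -3.99, -6.26 and -4.85. CDC45 (YLR103C) had -4.12 ± 1.20 under cycloheximide and -6.21 ± 1.12 under tunicamycin (n = 2 each), and -8.55 (n = 1) under rapamycin. Of the GINS subunits, SLD5 (YDR489W) had -3.99 ± 0.75 and -4.85 ± 0.57 under cycloheximide and tunicamycin, and no measured spot under rapamycin. PSF3 (YOL146W) had -4.48 ± 0.91 (n = 2), -8.04 (n = 1) and -5.71 (n = 1) under cycloheximide, rapamycin and tunicamycin. PSF1 (YDR013W) had -3.25 ± 0.57 (n = 2), -4.47 (n = 1) and -4.19 ± 2.51 (n = 2) in the same order. PSF2 (YJL072C) was the highest of the group, with -2.52 ± 0.63 (n = 2), which missed the threshold, -3.97 (n = 2), which was called, and -1.96 (n = 1).

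Of the factors that activate the helicase, SLD3, SLD2, DPB11 and CDC7 were called depleted on 2 arrays each, and DBF4 and MCM10 on none. SLD3, SLD2 and DPB11, the initiator proteins that are targets or readers of cyclin-dependent kinase, were each depleted under cycloheximide and tunicamycin. SLD3 (YGL113W) had -3.86 ± 0.92 under cycloheximide and -7.03 ± 0.44 under tunicamycin (n = 2 each). Its tunicamycin value was the lowest of the replication genes with 2 or more measured probes on that array. Its single measured probe under rapamycin stood at -8.66. SLD2 (YKL108W) had -3.63 ± 1.89, -5.44 (n = 1) and -4.53 ± 0.78, and DPB11 (YJL090C) -3.64 ± 1.03, -6.09 (n = 1) and -5.02 ± 1.98, under cycloheximide, rapamycin and tunicamycin. CDC7 and DBF4 encode the catalytic and regulatory subunits of 1 kinase. CDC7 (YDL017W) was depleted at -2.84 ± 1.29 under cycloheximide and -6.24 ± 2.02 under rapamycin, and had -2.55 ± 0.09 under tunicamycin, just inside the threshold (n = 2 each). DBF4 (YDR052C) had -1.51 ± 0.11, -1.72 ± 3.15 and 1.40 ± 2.53, and its tunicamycin value joined spots at 3.20 and -0.39. Its rapamycin value joined spots at 0.515 and -3.945, so 1 of its probes was low there. MCM10, which binds the ring and polymerase alpha, had 0.32 (n = 1), 0.53 ± 0.29 (n = 2) and 0.71 ± 0.23 (n = 2), and all of its measured spots were ratios of whole numbers up to 10. Its other spot under cycloheximide carried the code described with the processing, and keeping it would put the gene at 8.79.

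Polymerase alpha-primase held the lowest replication gene with 2 measured probes under cycloheximide. Of its 4 genes 3 of 4, 1 of 1 and 2 of 2 were depleted under cycloheximide, rapamycin and tunicamycin, with medians of -3.76, -8.19 and -4.76. PRI1 (YIR008C), the catalytic primase subunit, had -5.12 ± 1.27 (n = 2) under cycloheximide, which is 34.7-fold lower than the array median and the 10th lowest of all 4121 genes with at least 2 measured probes. It had -8.27 (n = 1) under rapamycin and -6.04 ± 0.20 (n = 2) under tunicamycin. PRI2 (YKL045W), the large primase subunit, had -3.76 ± 1.19 under cycloheximide and -5.15 ± 1.39 under tunicamycin, and both spots were empty under rapamycin. POL12 (YBL035C), the regulatory subunit, had -8.19 ± 0.03 (n = 2) under rapamycin, close to the lowest ratio of that array. Its cycloheximide value was -3.75 ± 0.61 (n = 2), and 1 probe gave -4.37 under tunicamycin. POL1, the catalytic polymerase subunit, was not called, with probes at -2.61 and 1.32 under cycloheximide and single probes at -5.37 under rapamycin and -3.80 under tunicamycin. The other POL1 probe under tunicamycin carried the same code, and keeping it would put the gene at 6.77.

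In polymerases delta and epsilon both catalytic subunits were called depleted on at least 2 arrays, and the smaller essential subunits on none. POL3 (YDL102W), the catalytic subunit of delta, was depleted on all 3 arrays, at -3.44 ± 0.60, -5.90 ± 1.12 and -3.50 ± 1.08 under cycloheximide, rapamycin and tunicamycin (n = 2 each). POL31, its essential second subunit, had 1 low and 1 high probe, at 0.32 and -5.07 under cycloheximide and at -0.13 and -6.84 under tunicamycin, and had -2.26 (n = 1) under rapamycin. POL2 (YNL262W), the catalytic subunit of epsilon, was depleted at -3.50 ± 0.75 under cycloheximide and -7.52 ± 1.09 under rapamycin (n = 2 each). Under tunicamycin it had -2.74 ± 1.36 (n = 2), with probes at -3.70 and -1.78, and just missed the call. DPB2, the essential second subunit of epsilon, had -0.02 (n = 1), -1.15 ± 0.94 (n = 2) and 1.37 ± 0.71 (n = 2). Because each of these complexes also holds non-essential genes, the medians over all 4 genes of epsilon, -0.64, -0.64 and 0.45, describe a mixture.

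The single-strand binding protein RPA had 1 gene with agreeing low probes and 2 with split ones. RFA3 (YJL173C), the smallest subunit, was depleted at -4.27 ± 1.53 under cycloheximide and -6.66 ± 0.09 under tunicamycin (n = 2 each), and had no measured spot under rapamycin. RFA1, the large subunit, had -2.80 (n = 1) under cycloheximide, probes at -8.65 and -0.26 under rapamycin, and at -6.82 and -1.13 under tunicamycin. RFA2, the middle subunit, had -3.05 (n = 1) under cycloheximide and probes at -6.77 and -0.13 under tunicamycin. Under rapamycin RFA2 had 0.10 (n = 1), measured only by the probe that was high under tunicamycin, while the low probe was empty.

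The clamp loader and the clamp were depleted on all 3 arrays in several genes. Of the 5 RFC genes 4 of 5 were depleted with cycloheximide, 2 of 3 with rapamycin, and 2 of 4 with tunicamycin, with medians of -3.82, -5.75 and -3.08. RFC5 (YBR087W) has 4 probes on the array, which stood in close pairs, at -4.52, -4.43, -5.68 and -5.72 under cycloheximide. Its gene value was -5.09 ± 0.71 (n = 4) there, -5.75 ± 0.03 (n = 2) under rapamycin and -6.12 ± 1.43 (n = 4) under tunicamycin. RFC2 (YJR068W) was also depleted on all 3 arrays, at -3.82 ± 0.77, -7.65 ± 0.50 and -3.08 ± 1.22 (n = 2 each) under cycloheximide, rapamycin and tunicamycin. RFC1 (YOR217W), the large subunit, was depleted at -4.68 ± 0.69 (n = 2) under cycloheximide, and had -3.07 (n = 1) under rapamycin. Under tunicamycin its probes stood at 0.22 and -4.58. RFC3 (YNL290W) had -2.87 ± 1.02 (n = 2), which was called, -6.30 (n = 1) and -4.04 (n = 1). RFC4 (YOL094C) had both probes near 0 on each array, with gene values of 0.31 ± 0.61, -0.63 ± 0.89 and 0.02 ± 0.63 (n = 2 each). POL30 (YBR088C), the PCNA clamp and the chromosomal neighbour of RFC5, was depleted on all 3 arrays, at -3.40 ± 0.94, -7.38 ± 0.26 and -5.52 ± 1.81 (n = 2 each).

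Of the essential lagging-strand enzymes, CDC9 was depleted on 2 arrays and DNA2 on none. CDC9 (YDL164C), the DNA ligase that seals Okazaki fragments, had -3.74 ± 1.02 (n = 2) under cycloheximide, -6.68 (n = 1) under rapamycin and -5.98 ± 2.75 (n = 2) under tunicamycin. DNA2 (YHR164C), a nuclease and helicase that trims long flaps, had -2.26 ± 1.35 under cycloheximide, -4.04 ± 3.74 under rapamycin and 0.27 ± 0.29 under tunicamycin (n = 2 each). Both DNA2 probes were measured on all 3 arrays, at -3.21 and -1.31, at -6.69 and -1.39, and at 0.47 and 0.07, so that under tunicamycin neither was low.

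Over the 3 arrays the 44 essential genes fell into 3 groups, formed from these values and given as a description. Depleted on at least 1 array were 27 genes, of which ORC2, POL3, RFC2, RFC5 and POL30 were depleted on all 3. Only 13 of the 44 genes had 2 or more measured probes on all 3 arrays and could be called on each. On every array where they had 2 or more measured probes, 22 genes were depleted. The matching shares over all genes of the array were not counted. Another 12 genes were never called but had at least 1 spot 2 units or more below 0. These were ORC1, ORC6, CDC6, MCM2, MCM4, MCM7, DBF4, POL1, POL31, RFA1, RFA2 and DNA2. POL1 and RFA2 had 2 measured probes on 1 array only, so they could be called on that array alone. The last 5, TAH11, MCM3, MCM10, DPB2 and RFC4, had no such spot, and their 27 measured spots ranged from -1.82 to 2.46 with a median of 0. Of the measured spots 1 of 141 (0.709%), 21 of 61 (34.4%) and 17 of 27 (63.0%) in these groups were ratios of whole numbers up to 10, against 63.4% in the 5 non-essential genes. Over all genes such ratios made up 66.7%, 40.7% and 63.1% of the measured spots under cycloheximide, rapamycin and tunicamycin. As deposited, such a ratio is never below 1 to 10. Under rapamycin that lies above the limit for a spot 2 units low, and on the other arrays little below it. The groups were formed by low spots, so the shares of the groups follow in large part from the grouping, and nothing is concluded from them. The part of spots with ratios of small whole numbers in the lack of a call was not tested.

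The probes of a gene can be compared because 43 of the 44 genes carry exactly 2. Among pairs with both probes measured, both lay more than 2 units below 0 in 25 of 38 genes with cycloheximide, 10 of 20 with rapamycin, and 19 of 36 with tunicamycin. In 9, 6 and 10 genes only 1 probe did so. In these split pairs the probe that was not low was a ratio of whole numbers up to 10 in 5, 3 and 8 genes, and the low probe was so in 0. The 0 is fixed by the selection under rapamycin, where a low probe lies below any such ratio. On the other arrays it is nearly so, and nothing is concluded from it. Of the 15 genes split on any array, 9 were split on at least 2 arrays, and in all 9 the same probe was the low one each time. The gene value of a split pair, such as -4.46 ± 5.93 (n = 2) for RFA1 under rapamycin, is thus the mean of unlike readings.

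**Figure D2:**
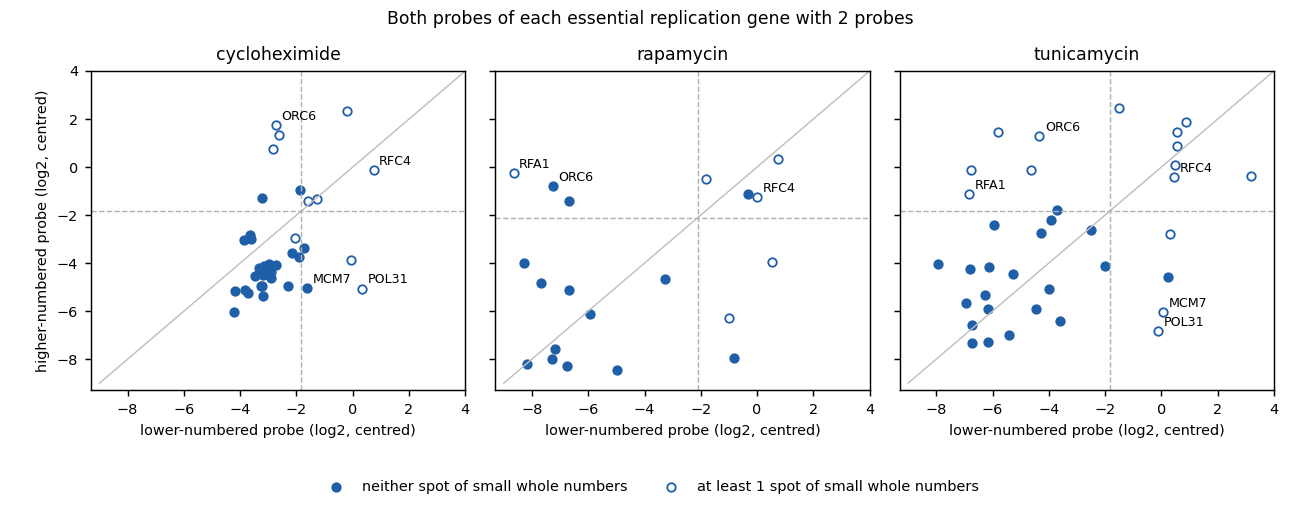
Each point is an essential replication gene with 2 measured probes, its lower-numbered probe on the horizontal and its higher-numbered probe on the vertical axis, as log2 ratio minus the array median. Open points have at least 1 spot whose ratio equals one of whole numbers up to 10, and dashed lines mark 2 spread units below 0. Points at the upper left and lower right are the split pairs, 9, 6 and 10 genes on the 3 arrays, among them ORC6, RFA1, MCM7 and POL31.

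The probe pairs also differed in order between the arrays. Under cycloheximide the higher-numbered probe was the lower in 22 of the 25 genes with both probes low, with a median difference of -1.31 between the higher- and lower-numbered probe. Under rapamycin it was the lower in 7 of 10 and under tunicamycin in 8 of 19, with median differences of -0.28 and 0.28. Which tag of a strain each probe reads is unknown here.

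Empty spots bore on rapamycin most. Of the spots of the 44 essential genes 29 of 90 (32.2%) were empty under rapamycin, against 4.44% under cycloheximide and 6.67% under tunicamycin, and in the 5 non-essential genes 17.5% were empty under rapamycin. The genes with no measured spot there were ORC4, SLD5, PRI2 and RFA3, each depleted on both other arrays. The spots empty under rapamycin were low elsewhere, with 27 of 29 lying 2 units or more below 0 under cycloheximide and 25 of 26 under tunicamycin. Of the essential-gene spots measured under rapamycin it was 39 of 56 and 34 of 57. The rapamycin median leaves these spots out.

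The lowest rapamycin values also lay at the edge of the array's range. Its lowest deposited log2 ratio was -9.996, or -8.67 after centring, and 14 of the 61 measured spots of the essential genes lay within 1 log2 of it. They belonged to 13 genes, CDC45, MCM4, MCM5, MCM6, ORC3, ORC5, POL12, POL2, PRI1, PSF3, RFA1, RFC2 and SLD3. No order among these genes is read from their values. Under cycloheximide and tunicamycin 0 spots lay so close to the lowest value of their array.

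Spots measured on both arrays of a pair allow the drugs to be set side by side without the empty ones. Of 56 spots of the essential genes measured under both rapamycin and cycloheximide, 50 were lower under rapamycin, with a median difference of -2.67. Of 57 measured under both rapamycin and tunicamycin, 53 were lower under rapamycin, by a median difference of -2.20. Tunicamycin was lower than cycloheximide in 48 of 78, with a median difference of -0.50. In the list of non-essential amino acid and adenine synthesis genes these differences were -0.28, -0.20 and -0.09. Over gene values the median difference of tunicamycin minus cycloheximide was -0.92 and turned to 0.09 after quantile normalization of the arrays, while that of rapamycin minus cycloheximide was -1.66 and kept its sign at -0.77. With 1 array per drug none of these differences was tested, and drug, library or kind of selection, and array cannot be told apart.

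Single genes varied widely around these median differences, some against their direction and some far along it. RFC5 had nearly equal values under rapamycin and cycloheximide, -5.75 and -5.70 over the 2 probes measured on both arrays. RFC1 was higher under rapamycin than under cycloheximide, at -3.07 and -4.19 in the probe measured on both. With both probes measured on each array, rapamycin minus tunicamycin was -4.78 in POL2, -4.57 in RFC2 and -4.31 in DNA2, and rapamycin minus cycloheximide was -4.44 in POL12. The rapamycin values of POL2, RFC2 and POL12 lay at the edge named above, so these differences are not ranked. Tunicamycin was higher than cycloheximide by 2.91 in DBF4, 2.53 in DNA2 and 2.50 in RFC1, while it was lower by a difference of -3.17 in SLD3 and -2.68 in MCM5.

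**Figure D3:**
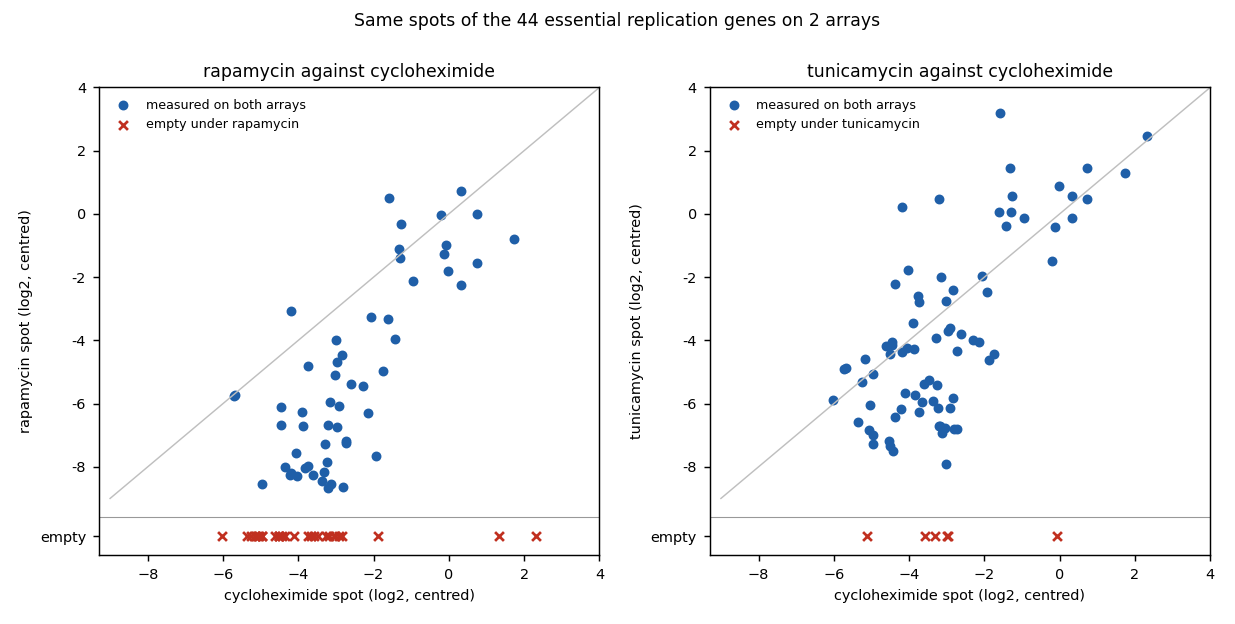
Each point is a spot of the 44 essential replication genes, with its log2 ratio minus the array median under cycloheximide on the horizontal axis and under rapamycin or tunicamycin on the vertical axis. Red crosses in the strip at the bottom are spots that were empty on the array of the vertical axis, placed at their cycloheximide value. Most points of the rapamycin panel lie below the line of equality, 50 of 56, and 27 of its 29 crosses lie 2 spread units or more below 0 under cycloheximide.

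Set beside other essential genes, the 44 essential replication genes had depleted shares in the range of 3 other lists. Their depleted shares of 64.1%, 52.4% and 51.4% under cycloheximide, rapamycin and tunicamycin stood beside 69.2%, 50% and 50% for kinetochore and spindle pole body genes. They were 60%, 58.3% and 56.5% for RNA polymerase subunits and 58.3%, 50% and 62.5% for the proteasome. Medians of the 44 genes were -3.37, -5.40 and -3.65, against -3.35, -5.36 and -3.76 for the kinetochore list, -3.54, -4.54 and -3.77 for the RNA polymerases and -3.01, -5.90 and -4.48 for the proteasome. In the non-essential amino acid and adenine list 0 of 42, 0 of 48 and 0 of 37 genes were depleted, with medians of 0.03, 0.03 and 0.01. No difference between the essential lists was tested.

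**Figure D4:**
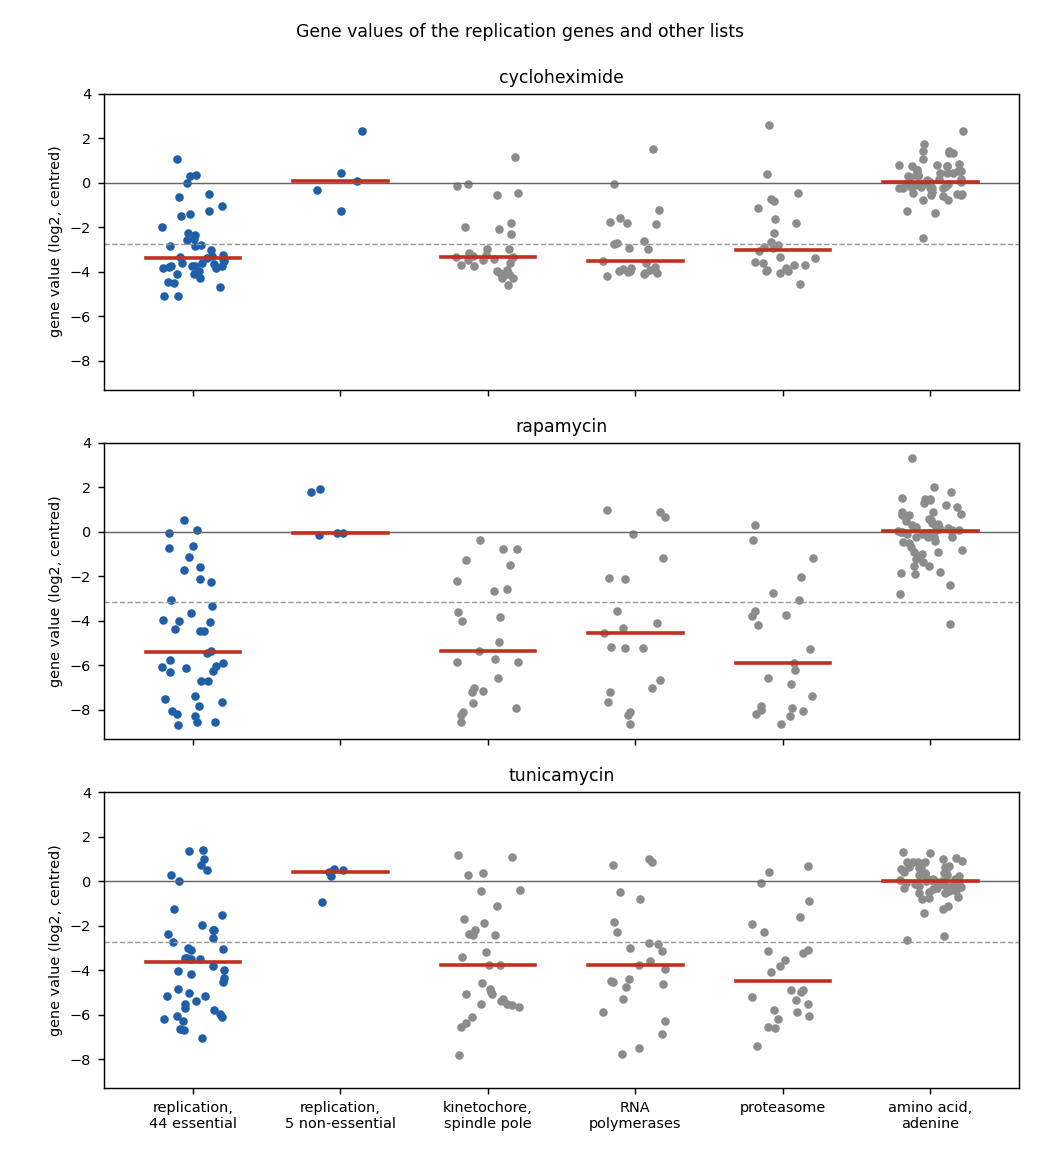
Points are gene values, log2 ratio minus the array median, for the replication genes (blue) and for kinetochore, RNA polymerase, proteasome and non-essential amino acid and adenine genes (grey), with 1 panel per array. Red lines are medians and the dashed line is the depletion threshold. The 44 essential replication genes have medians of -3.37, -5.40 and -3.65, and the 5 non-essential ones 0.08, -0.05 and 0.39. Values of these 5 run from -1.26 to 2.32 under cycloheximide, -0.13 to 1.91 under rapamycin and -0.94 to 0.56 under tunicamycin. All lie within the range of the amino acid and adenine genes.

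Of 16 related genes chosen as essential for nucleotide supply, checkpoint signalling, telomere ends and fork chromatin, 5 of 14 were depleted with cycloheximide, 4 of 9 with rapamycin, and 4 of 14 with tunicamycin, and 0 were enriched. CDC21 (YOR074C), thymidylate synthase, had -3.77 ± 1.16 (n = 2) under cycloheximide and -8.63 (n = 1) under rapamycin. CDC8 (YJR057W), thymidylate kinase, was depleted at -5.52 ± 0.15 (n = 2) under rapamycin. RNR2 (YJL026W), a small subunit of ribonucleotide reductase, was depleted at -6.30 ± 2.96 (n = 2) on the same array. The checkpoint kinase gene MEC1 had -4.11 (n = 1) under cycloheximide, and RAD53 (YPL153C) was depleted at -5.77 ± 0.24 (n = 2) under tunicamycin. POB3 (YML069W), a subunit of the FACT histone chaperone, was depleted at -6.86 ± 0.05 (n = 2) and the cohesin acetyltransferase gene ECO1 had -5.98 (n = 1) under tunicamycin. Among 27 non-essential fork and repair factors 1 of 22 was depleted with cycloheximide, 0 of 22 with rapamycin, and 0 of 22 with tunicamycin, with medians of 0.17, -0.24 and 0.21.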

How the data were processed

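Each array file holds log2 ratios as deposited by the authors, over 22575 spots. Base 2 was read from the values. The sources used here do not state the scanner, background correction or normalization. Each array's median was subtracted (cycloheximide -0.74, rapamycin -1.32, tunicamycin -0.87). The value 16.61, the log2 of 100000, stood on 739, 196 and 526 spots, was read as a code and left out, and 3156, 2821 and 2951 spots were empty. Probes were named through the platform annotation, and 5321 of 5325 genes matched RefSeq assembly R64, used for symbols, locus tags and neighbours. No sequence of tags is printed. A ratio was called one of whole numbers up to 10 when it lay within 0.0006 of its log2.

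Calls follow the rule of size stated with the results, since 1 array per drug leaves no test. All 49 members are named, related genes by the 3 largest absolute values per array. Members and lists were chosen with earlier results of these data known. The call code was tested on simulated data. Python 3.11.15 with pandas 2.3.3 and numpy 2.4.6 was used. Alternatives tried were the code kept, other centring, thresholds and spread units, quantile normalization, and ratios of small whole numbers left out. The number of arrays limits the precision.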

Additional observations from a re-analysis of the deposited data

How the results depend on the processing

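No replication gene was called enriched under any alternative, and the depleted counts kept within 1.5 times of the reported ones in 21 of 24 cases. The exceptions were 24 genes under rapamycin when 1 measured probe sufficed, 15 under cycloheximide at 4 and 3 spread units, and 0 of 31 under cycloheximide without ratios of small whole numbers. That last setting takes out 66.5% of the measured spots of that array, which left 1442 genes and a spread unit of 1.64, against 4121 genes and 0.92. Over all genes the depleted counts were then 6 under cycloheximide, 185 under rapamycin and 423 under tunicamycin, against 625, 259 and 569. At 4 and 3 spread units 341 of 4121 genes (8.27%) were depleted under cycloheximide. Without centring the median under rapamycin was -5.78, and the other 14 of 15 alternative medians moved by less than 1 spread unit of their array. Of the differences between drugs only that of tunicamycin minus cycloheximide turned, to 0.088 after quantile normalization, and the cause was not tested. In spread units of each array this difference was -1.06. The alternative with only probes measured on both arrays was chosen after seeing the data and gave -2.46, -0.93 and -2.06 for rapamycin minus cycloheximide, tunicamycin minus cycloheximide and rapamycin minus tunicamycin. With the code kept MCM10 had 8.79 under cycloheximide, and POL1 had 6.77 and POL32 2.18 under tunicamycin, none of them called. Of 702 alternative member values 591 and of 193 complex medians 168 moved by less than their spread, and no called member changed sign. No paired analysis was possible because each drug has 1 array. Depth cannot be given, as channel signals were not analysed here.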

Other observations

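Among the non-essential fork factors SLD7 (YOR060C), which encodes the partner of Sld3, was the gene called depleted. Its value was -3.88 ± 0.94 (n = 2) under cycloheximide and -4.51 in 1 probe under tunicamycin, and rapamycin left no measured spot. In its own partner gene SLD3 the values were -3.86, -8.66 and -7.03 under cycloheximide, rapamycin and tunicamycin. Presence of an SLD7 strain in the pool is not known here.

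The 12-probe genes of the array behaved apart from the 2-probe genes. Of 781 genes with 12 probes, 2, 3 and 1 were depleted under cycloheximide, rapamycin and tunicamycin, while of the 4439 genes with 2 probes 621 of 3239, 254 of 3130 and 566 of 3284 were. POL32, DPB3 and RAD27 are such 12-probe genes, and so are RNR1 and RNR4, which encode subunits of ribonucleotide reductase. RNR1 had 0.11 ± 0.77 (n = 9) under cycloheximide, -0.33 ± 1.46 (n = 11) under rapamycin and -0.18 ± 0.93 (n = 10) under tunicamycin, although RNR1 had been listed here as essential. RNR4, listed here as essential as well, had 0.71 ± 0.64 (n = 6), -0.33 ± 1.52 (n = 10) and 0.53 ± 0.92 (n = 11). Both genes count in the depleted shares given above for the related genes chosen as essential.

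The replication genes have 94 chromosomal neighbours outside the set. Where 2 or more probes were measured, cycloheximide had 15 of 71 (21.1%) depleted, rapamycin 8 of 64 (12.5%) and tunicamycin 14 of 70 (20%). The shares over all genes were 15.2%, 6.45% and 13.6%, and neighbours can be essential themselves. POL2 and ORC5 are neighbours within the set, as are RFC5 and POL30.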
